A study of Homo sapiens with 4 samples.

Results

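Regions of open chromatin that dropped out of the peak list after all-trans retinoic acid (ATRA) alone numbered 2763 of the 122632 merged regions in OPM-2 cells. Overlapping peaks of the 4 deposited lists on chromosomes 1 to 22 and X were merged, and members were chosen by the presence of a called peak: a region was kept when it held a peak from pomalidomide (POM), from ATRA with POM (ATRA+POM) and from the vehicle DMSO, and none from ATRA. The membership of a region was therefore set by measured values, and the pileups given here for DMSO, POM and ATRA+POM describe what the choice selected. ATAC-seq was used, where Tn5 transposase cuts and tags accessible DNA. OPM-2 is an established multiple myeloma line, and the series title places the study in myeloma with the t(4;14) translocation and asks whether activation of RARβ overcomes resistance to immunomodulatory drugs. Cells were held for 72 h in 1 µM ATRA, in 1 µM POM, in both agents at these doses, or in DMSO. All 4 conditions used the same line with 1 library each, and without replicates every difference below is a description of these libraries and carries no p-value.

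ATRA is a ligand of the retinoic acid receptors, which pair with retinoid X receptors on DNA and turn from holding co-repressors to recruiting co-activators when the ligand binds. RARB is itself a classical retinoic acid target gene, and CYP26A1 encodes an enzyme that degrades the ligand. POM binds cereblon, the substrate receptor of a ubiquitin ligase, which then marks the lymphoid transcription factors IKZF1 and IKZF3 for degradation. Plasma cells, from which myeloma arises, depend on these Ikaros factors and on regulators such as PRDM1.

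Few of the regions lay over promoters, and the sequences of 6 that did are shown, since promoters are the stretches of the members whose bases were read here. Of 15812 protein-coding starts listed by RefSeq (GRCh38.p14), 19 fell inside a region missing only from ATRA. The promoters of FLT3, a receptor tyrosine kinase of blood progenitors, GZMA, a granzyme of cytotoxic lymphocytes, and STK24, a serine/threonine kinase, belong to the best-ranked members near a gene. Those of MMP10, a matrix metalloproteinase, GIPC2, a PDZ-domain protein, and MICALL1, an endocytic recycling protein, were chosen after their values were seen, for an AP-1 match, for the only half-site match and for the low POM-library signal of the region. All coordinates here and below are on hg38. Each sequence runs 5′ to 3′ on the strand of the gene, with 250 bases before the start and 50 after it, and capitals mark matches to the motifs named below.
FLT3, chr13:28100527-28100826, minus strand: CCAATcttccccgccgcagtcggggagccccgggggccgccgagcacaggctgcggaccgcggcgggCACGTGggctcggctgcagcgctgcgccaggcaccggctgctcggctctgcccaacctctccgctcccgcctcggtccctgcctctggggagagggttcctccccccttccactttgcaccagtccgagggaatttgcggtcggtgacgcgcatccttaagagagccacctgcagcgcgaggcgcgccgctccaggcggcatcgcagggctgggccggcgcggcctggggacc
GZMA, chr5:55102396-55102695, plus strand: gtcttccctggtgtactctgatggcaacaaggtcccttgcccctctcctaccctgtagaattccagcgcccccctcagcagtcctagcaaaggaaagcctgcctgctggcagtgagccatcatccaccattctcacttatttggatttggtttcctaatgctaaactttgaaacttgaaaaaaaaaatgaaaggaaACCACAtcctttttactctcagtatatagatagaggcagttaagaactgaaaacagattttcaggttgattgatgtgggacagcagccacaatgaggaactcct
STK24, chr13:98577058-98577357, minus strand: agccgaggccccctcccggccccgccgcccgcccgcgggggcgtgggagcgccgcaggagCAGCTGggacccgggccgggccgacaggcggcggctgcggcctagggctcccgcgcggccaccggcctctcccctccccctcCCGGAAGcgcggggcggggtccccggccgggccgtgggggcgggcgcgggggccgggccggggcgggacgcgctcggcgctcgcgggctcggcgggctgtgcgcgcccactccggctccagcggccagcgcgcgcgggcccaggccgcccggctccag
MMP10, chr11:102780579-102780878, minus strand: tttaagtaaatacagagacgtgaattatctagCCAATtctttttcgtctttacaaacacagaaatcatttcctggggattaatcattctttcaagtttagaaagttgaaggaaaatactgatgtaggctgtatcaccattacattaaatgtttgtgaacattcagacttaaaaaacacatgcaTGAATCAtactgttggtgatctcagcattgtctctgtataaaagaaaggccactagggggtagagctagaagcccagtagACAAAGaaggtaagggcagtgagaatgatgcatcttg
GIPC2, chr1:78044720-78045019, plus strand: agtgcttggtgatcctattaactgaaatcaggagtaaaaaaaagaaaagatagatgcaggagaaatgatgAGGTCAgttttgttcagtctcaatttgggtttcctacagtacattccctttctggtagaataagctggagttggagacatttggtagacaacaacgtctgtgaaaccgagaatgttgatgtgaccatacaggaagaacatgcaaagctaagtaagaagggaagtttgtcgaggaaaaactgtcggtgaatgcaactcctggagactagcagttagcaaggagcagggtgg
MICALL1, chr22:37906047-37906346, plus strand: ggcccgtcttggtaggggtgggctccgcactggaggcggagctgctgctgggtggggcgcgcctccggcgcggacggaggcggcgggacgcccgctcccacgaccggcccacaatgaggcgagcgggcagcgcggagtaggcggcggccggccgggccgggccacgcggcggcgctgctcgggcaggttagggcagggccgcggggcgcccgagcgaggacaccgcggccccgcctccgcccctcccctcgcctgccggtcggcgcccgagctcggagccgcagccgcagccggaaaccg

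These promoters differed in base composition. FLT3, STK24 and MICALL1 had a GC content of 74.0%, 87.0% and 81.0%, with 34, 51 and 48 CpG dinucleotides in the 300 bases. GZMA, MMP10 and GIPC2 had 45.0%, 36.3% and 42.0%, with 1, 2 and 4 CpG. Over the 19 promoters the median GC content was 56.7%, and 5 of them (26.3%) were under 50%. Among the 8342 promoters whose start lay in a region of all 4 lists the median was 66.0% and 5.07% were under 50%. Across all 15812 listed promoters the median was 62.7%, with 17.8% under 50%.

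Motifs were searched on both strands of the 300 bases. No promoter of the 19 held a direct repeat of the retinoid receptor half-site AGGTCA spaced by 1, 2 or 5 bases (the DR1, DR2 and DR5 repeats), and of all 15812 promoters 3 held the DR1 repeat and 0 the others. The half-site alone, which every such repeat contains, was in 1 of the 19 (5.26%, GIPC2), in 8.91% of the promoters in regions of all 4 lists and in 11.7% of all. TGANTCA, the letters bound by AP-1, was in 3 of the 19 (15.8%: MMP10, ADCY7 and CAPN6), against 3.48% in regions of all 4 lists and 5.76% of all. ACAAAG, the core bound by SOX and TCF proteins, was in 5 of the 19 (26.3%), against 9.58% and 12.8%. CCGGAAG, bound by ETS factors, was in 2 of the 19 (10.5%), against 22.7% and 14.2%. The NFY letters CCAAT were in 7 of the 19 (36.8%), against 38.5% and 36.3%. TGTGGT (RUNX) was in 2 of the 19, CAGCTG and CACGTG (E-boxes) in 2 and 1, and a pair of GAAA spaced by NN (IRF) in 2. The octamer ATGCAAAT, GGGANTTCC (NF-kB) and CTATTTTTA (MEF2) had no match in the 19. With 19 promoters each match moves a share by 5.26 percentage points, and a match is a description of letters in this window.

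The libraries differed in pileup and background, and the files give no read totals. The lists held 76636 peaks for ATRA, 69162 for POM, 85434 for ATRA+POM and 76402 for DMSO. The read pileup at a summit and the caller's background were recovered from each peak's fold and p-value. The genome-wide background was 2.36 reads in ATRA, 0.550 in POM, 1.51 in ATRA+POM and 2.36 in DMSO, and the smallest pileup called was 8, 4, 7 and 8 reads in the same order. Over the 42930 regions of all 4 lists the median pileup ratio to DMSO was 0.873 (ATRA), 0.396 (POM) and 0.707 (ATRA+POM). These medians scale every ratio below, and scaling for depth means scaling by them. They hold peak signal as well as read number. ATRA and DMSO both had a genome-wide background of 2.36 reads, while their pileup ratio was 0.873. Plasma cell and myeloma marker genes carried a peak within 1 kb of a gene boundary in every list (7 of 7). Of 4 T cell markers 2 had a peak in each list, of 4 monocyte and granulocyte markers 1 had a peak in ATRA and 0 in the other lists, of 4 B cell markers 1 had one in DMSO and 0 elsewhere, and of 4 erythroid markers 0 had one.

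The members were 6.05% of the 45693 regions called in POM, ATRA+POM and DMSO (Wilson 95% interval 5.83 to 6.27%, here and below for counting error only). Regions missing from 1 other list and present in the remaining ones made 16.6% for POM, 4.41% for ATRA+POM and 4.21% for DMSO. When every list was truncated to its 69162 highest peaks by −log10 q-value, the shares were 5.70% for ATRA, 13.0% for POM, 5.95% for ATRA+POM and 3.90% for DMSO, so the order of ATRA and ATRA+POM turned. The share for ATRA stayed above that for DMSO under each threshold tried. A stricter threshold in every list (−log10 q-value of 3 or more) gave 5.85% for ATRA and 3.74% for DMSO. With that threshold in the POM, ATRA+POM and DMSO lists and the authors' threshold in ATRA, the shares were 4.83% and 4.43%, which set a looser call for ATRA against a stricter one for DMSO.

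The regions were weak and narrow. Fewer cells with a site open and less opening per cell cannot be told apart in these bulk libraries. The median summit pileup of the members was 11 reads in POM (quartiles 8 and 17), 21 in ATRA+POM (15 and 31) and 15 in DMSO (12 and 20). In the regions of all 4 lists it was 23, 41 and 55 reads in the same libraries. Counting error alone gives a pileup of 15 an exact Poisson 95% interval of 8.40 to 24.7 reads, and gives 8, the smallest pileup called in ATRA, one of 3.45 to 15.8. The median width was 620 bp for the members and 889 bp for the regions of all 4 lists. A merged region spans the peaks of every list that holds it, so the regions of all 4 lists take in an ATRA peak as well. At 12 to 15 DMSO reads the medians were 633.5 and 724.5 bp, and at 50 or more 514.5 and 1045 bp. Regions missing only from POM, ATRA+POM or DMSO were narrow too, with medians of 650, 576.5 and 598 bp. Those missing only from DMSO were also weak, with a median of 14 reads in ATRA. In each of the 3 lists the members ranked low: the median rank by −log10 q-value was 41536 in POM, 44263 in ATRA+POM and 58776 in DMSO.

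Membership was set by a calling threshold, and absence from the ATRA list is not a measured signal of 0. The weakest member had a −log10 q-value of 1.31 in DMSO, and the regions of all 4 lists just on the other side began at 1.32 in ATRA. There were 595 regions of all 4 lists with an ATRA −log10 q-value under 3. Their median pileups were 10 reads in ATRA, 10 in POM, 20 in ATRA+POM and 15 in DMSO, close to the medians of the members. Of these 595, 2.35% lay within 1 kb of a gene boundary and 24.0% had no gene within 100 kb, against 2.21% and 26.8% of the members. Scaling the DMSO pileup of each member to the depth of ATRA gave a median of 13.1 reads, where the median pileup needed for a call at that background was 8. The scaled value was under the need in 191 members (6.91%), 1 to 2 times the need in 2136 (77.3%) and 2 times or more in 436 (15.8%), of which 68 reached 3 times. Of the regions of all 4 lists, 85.0% reached 2 times the need by their DMSO pileup. Scaled from the other libraries instead, 69.9% of the members reached 2 times the need by their POM pileup and 76.0% by their ATRA+POM pileup, against 82.7% and 84.5% of the regions of all 4 lists.

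The share missing from ATRA fell with the DMSO pileup. It was 49.1% below 12 reads (606 of 1235 regions), 32.4% at 12 to 15 reads, 18.1% at 16 to 19, 7.60% at 20 to 29, 2.04% at 30 to 49 and 0.291% at 50 or more (68 of 23351). Regions missing only from DMSO, graded by their ATRA pileup, gave 36.5%, 21.9%, 10.7%, 3.91%, 0.663% and 0.0977% (20 of 20475) in the same classes. An ATRA read stands for slightly more than a DMSO read, by the scale of 0.873. Both shares fell in each step, and the one for ATRA was the higher in all 6 classes. Regions are not replicates of a condition, the classes are cut on unscaled reads of different libraries, and no test of this difference was possible with 1 library each. Graded by POM pileup, the share missing from ATRA was 19.4% below 8 reads and 0.429% at 50 or more, and graded by ATRA+POM pileup it was 24.5% below 12 reads and 0.309% at 100 or more.

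**Figure D1:**
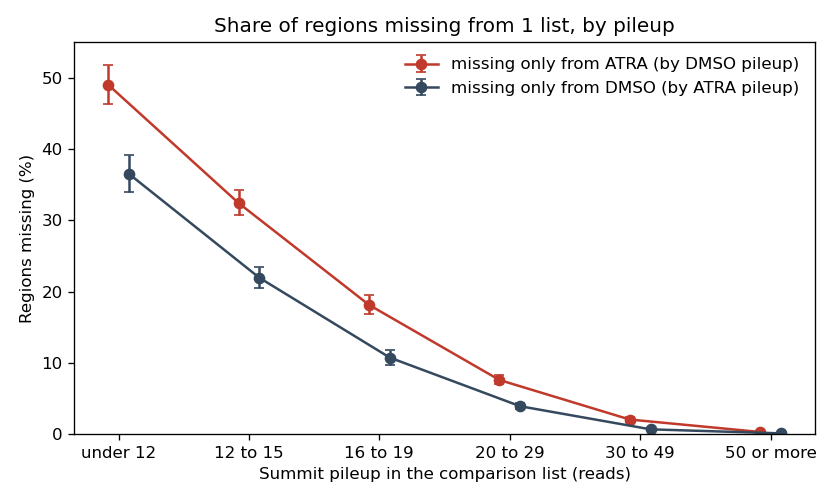
Share of regions (%) missing only from ATRA, by DMSO summit pileup (red), and missing only from DMSO, by ATRA summit pileup (dark), in 6 classes of reads; each share is of the regions called in the other 3 lists, and bars are Wilson 95% intervals. Both shares fall, with 49.1% and 36.5% below 12 reads and 0.291% and 0.0977% at 50 reads or more.

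Relative to DMSO the members stood higher in both POM libraries. On the log2 scale of scaled pileups, the median difference was 0.84 for POM over DMSO and 0.89 for ATRA+POM over DMSO, where the regions of all 4 lists are at 0 by construction. In POM 1169 members (42.3%) were at least 2-fold higher than in DMSO, against 13.4% of all 45693 regions called in the 3 lists. In ATRA+POM 1220 (44.2%) were at least 2-fold higher and 19 (0.688%) lower, against 15.1% and 9.20%. The low share of lower members was largely set by the rule, since each had to hold an ATRA+POM peak of at least 7 reads. Under 20 DMSO reads, 0 regions of either set were 2-fold lower. At 20 to 29, 30 to 49 and 50 or more reads it was 0.615%, 2.72% and 16.2% of the members. Of the regions of all 4 lists it was 0.539%, 4.04% and 16.3%. The POM and ATRA+POM comparisons use the same DMSO library, and weak DMSO peaks gave high ratios in general. At 12 to 15 DMSO reads the medians were 0.96 in POM and 1.05 in ATRA+POM for the members, and 0.85 and 1.05 for the regions of all 4 lists. At 20 to 29 reads they were 0.60 and 0.50 for the members, and 0.45 and 0.50 for the others. At 50 reads or more they were −0.20 and −0.29 for the members, and −0.32 and −0.34 for the others. Over the 6 classes of DMSO pileup the largest difference between the medians of the 2 sets was 0.15 in POM and 0.06 in ATRA+POM.

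**Figure D2:**
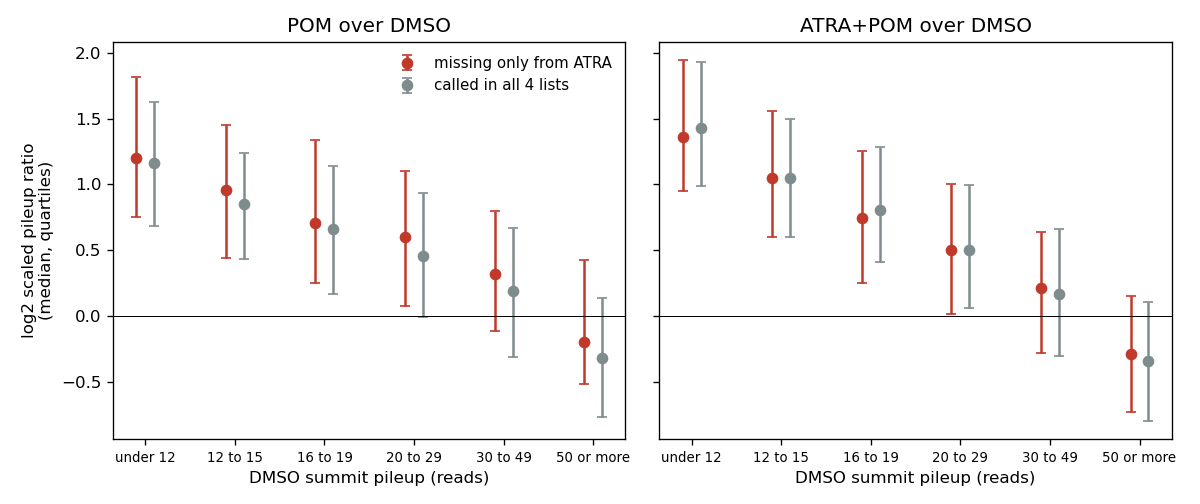
Median log2 ratio of scaled summit pileups for POM over DMSO (left panel) and ATRA+POM over DMSO (right panel), in 6 classes of DMSO pileup, for the members (red) and the regions of all 4 lists (grey); bars span the quartiles. Both sets fall with the DMSO pileup and lie close together within each class, with 0.96 and 0.85 at 12 to 15 reads in POM.

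ATRA+POM set against POM used no DMSO value, and its order depended on the grading. With the scaled pileup of ATRA+POM over POM, the median log2 difference of the members was below that of the regions of all 4 lists in 6 of 6 classes of DMSO pileup, by 0.09 to 0.19, and in 7 of 7 classes of POM pileup. Graded by ATRA+POM pileup it was above that of the other regions in 6 of 6 classes, by 0.06 to 0.14. No direction is drawn from it. Over all members the median was 0.03, and over the regions of all 4 lists 0.02.

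Of the members, 4 were among the 20000 peaks of highest −log10 q-value in POM, ATRA+POM and DMSO alike, 18 were among the 30000 highest and 0 among the 10000 highest. In the same 20000 there were 15 regions missing only from POM, 34 missing only from ATRA+POM and 1 missing only from DMSO. The best-ranked member (chr4:41281094-41281536, 443 bp) lay 12.8 kb outside UCHL1, a deubiquitinating enzyme, and had 45 reads in POM, 57 in ATRA+POM and 65 in DMSO. Scaled to ATRA, the DMSO value corresponds to 56.7 reads where 11 sufficed for a call, and the nearest ATRA peak was 22019 bp away. The second (chr12:107992727-107993191) had no gene within 100 kb, with 44, 50 and 56 reads in POM, ATRA+POM and DMSO. The next lay 8.04 kb from C3orf20 (chr3:14780988-14781509), with 33, 38 and 53 reads. The fourth (chr16:49158110-49158508) was 119.7 kb from CBLN1, which encodes a synapse-organizing secreted protein, and had 21, 35 and 51 reads, with no ATRA peak nearer than 123104 bp. In these 4 the scaled log2 ratio to DMSO was 0.81, 0.99, 0.65 and 0.06 for POM, and 0.31, 0.34, 0.02 and −0.04 for ATRA+POM.

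Lower in the ranking, a peak inside GOLIM4, a Golgi membrane protein gene (chr3:168047272-168047559), had 27 reads in POM, 51 in ATRA+POM and 61 in DMSO. A peak 3.15 kb from ID2, an inhibitor of basic helix-loop-helix transcription factors (chr2:8678786-8679154), had 76, 124 and 162 reads, over a DMSO background of 46.5. Its ATRA neighbour was 1933 bp away. A member inside COL8A1, a collagen gene (chr3:99789337-99789765), had 46, 38 and 50 reads, and one near SLC25A14, a mitochondrial carrier (chrX:130330572-130331095), had 33, 37 and 48. EPB41L2, a cytoskeletal adaptor gene, held a peak with 25, 46 and 40 reads, WWC2 one with 21, 30 and 47, and PCDH15, a protocadherin gene, one with 25, 38 and 34. A region 83.3 kb from DUSP26, a phosphatase gene, had 30, 60 and 48 reads. Of the 15 best-ranked members 5 had no gene within 100 kb, and the one on chromosome 2 (chr2:149994260-149994829) was the highest in ATRA+POM relative to DMSO, with 53 reads in POM, 94 in ATRA+POM and 41 in DMSO.

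**Figure D3:**
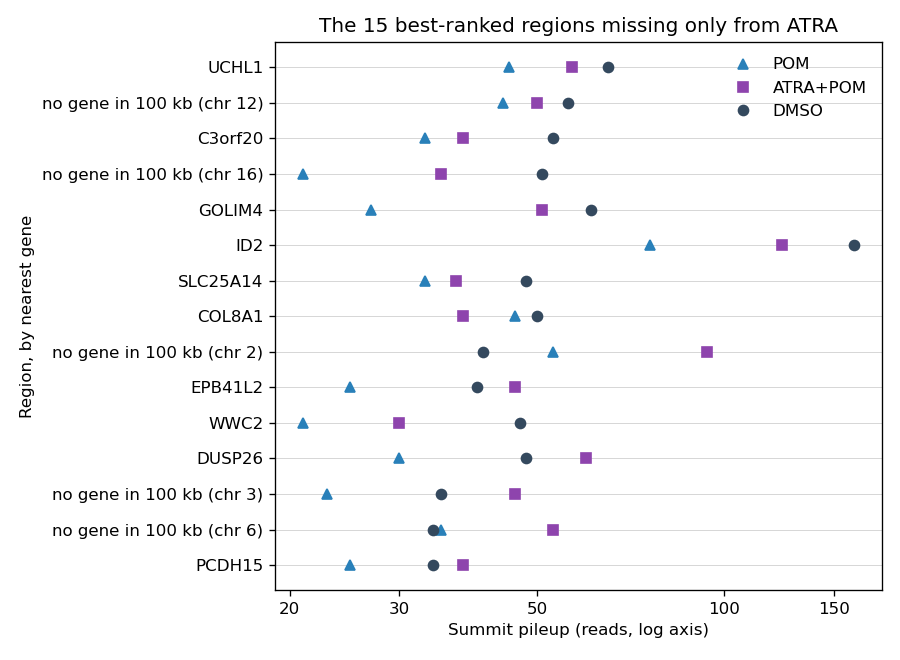
Summit pileup (reads, log axis) of the 15 members with the best worst rank over the POM, ATRA+POM and DMSO lists, named by the nearest protein-coding gene within 100 kb. Triangles are POM, squares ATRA+POM and circles DMSO, not scaled for depth. ID2 stands highest, with 162 reads in DMSO, and DMSO is the highest of the 3 in the first 8.

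Members near genes were few. Only 61 members (2.21%, 1.72 to 2.83%) had their DMSO summit within 1 kb of either end of a protein-coding gene, against 22.2% of the regions of all 4 lists. For regions missing only from POM, ATRA+POM and DMSO the share was 4.88%, 7.87% and 1.91%, the last by the ATRA summit. Against the regions of all 4 lists, the comparison at equal pileup was closer. At 12 to 15 DMSO reads the shares were 1.36% and 1.75%, at 20 to 29 they were 3.07% and 3.13%, and at 50 or more 19.1% (13 of 68) and 38.0%. The 61 had a median DMSO pileup of 24 reads (quartiles 15 and 41), and 23 of them lay within 1 kb of a listed start.

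Best ranked near a boundary was a peak over STMN3, a microtubule-destabilizing stathmin (chr20:63653124-63653922), with 24 reads in POM, 34 in ATRA+POM and 84 in DMSO, and an ATRA peak lay 1222 bp off. The FLT3 peak (chr13:28100380-28100932), which covers all 300 bases of the sequence printed above, had 17, 22 and 31 reads. Scaled to ATRA its DMSO value is 27.1 reads, where 8 sufficed, and the nearest ATRA peak was 36966 bp away. The peak at GZMA (chr5:55102052-55102907) had 31, 47 and 33 reads, 1.25 and 1.01 higher on the log2 scale in POM and ATRA+POM than in DMSO. The peak at STK24 (chr13:98576981-98577925) had 35, 59 and 59 reads over a DMSO background of 15.7, and an ATRA peak lay 177 bp from its edge. A peak 12 bp from QKI, an RNA-binding protein gene (chr6:163414619-163414980), had 54, 67 and 70 reads over a background of 18.9, with an ATRA peak 340 bp off. The FLT3 region had no ATRA peak near it, and those at STK24 and QKI stood at the edge of an ATRA peak.

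Where the DMSO pileup was high, the DMSO background was often high too. Of the 68 members with 50 or more DMSO reads, 32 (47.1%) had a background of 20 reads or more. Among the regions of all 4 lists at this pileup the share was 24.6%. The 68 members with 50 or more DMSO reads had a median DMSO background of 18.7 reads and a median deposited fold of 3.26, against 10.9 reads and a fold of 10.4 in the 23283 regions of all 4 lists at this pileup. Among regions with 50 or more DMSO reads the share missing from ATRA was 13.7% below a fold of 3 (32 of 233), 2.06% at 3 to 4, 0.491% at 4 to 6 and 0.0903% at 6 or more (19 of 21051). The nearest ATRA peak was a median of 1790 bp from the 68, and in 18 of them it lay within 1 kb. The highest pileup of any member was at PTMA, the prothymosin gene (chr2:231709958-231710716), with 50 reads in POM, 80 in ATRA+POM and 230 in DMSO, over a DMSO background of 99.2. At PER1, a circadian clock gene (chr17:8154098-8154598), the reads were 47, 103 and 186 over 74.1, and at BAMBI, a decoy receptor of TGF-beta signalling (chr10:28679977-28680619), 34, 56 and 126 over 55.9. These regions were chosen after their values were seen, and ATRA peaks lay 1036, 1517 and 608 bp from them. The 19 members with a fold of 6 or more stood well above their background. Among them was EML1, a microtubule-associated protein gene (chr14:99793216-99794008), with 33, 29 and 128 reads over a background of 9.88. No ATRA peak was nearer to it than 16203 bp. Others were the region near UCHL1, with 65 DMSO reads over 4.12, and the one at MGAT5B, with 110 over 12.8.

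The range of the POM-library signal among the members was wide, and its ends were chosen after the values were seen. At the upper end stood a peak inside CNTNAP2, a neuronal adhesion protein gene (chr7:146961213-146962164), with 105 reads in POM, 172 in ATRA+POM and 12 in DMSO, or 4.47 and 4.34 higher on the log2 scale than DMSO. A region on chromosome X with no gene within 100 kb (chrX:94123860-94124811) had 47, 195 and 14 reads. ZC3H12B, a CCCH zinc finger gene (chrX:65127432-65128207), held a peak with 65, 149 and 12 reads, TENM4, a teneurin gene (chr11:79055681-79056686), one with 83, 185 and 16, and a region 25.4 kb from TACR1, the substance P receptor gene (chr2:75224616-75225324), had 76, 118 and 11. In these 5 the DMSO pileup was 11 to 16 reads, which the ATRA depth scales to 9.6 to 14.0, where 8 or 9 reads were needed for a call.

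At the lower end ATRA+POM stood below DMSO. A peak 0.347 kb from AGRN, which encodes the proteoglycan agrin (chr1:1019189-1020188), had 16 reads in POM, 13 in ATRA+POM and 86 in DMSO, or −1.09 and −2.23 on the log2 scale. PCBP4, an RNA-binding protein gene (chr3:51966986-51968057), had 19, 11 and 63 reads, PLXNB2, a semaphorin receptor gene (chr22:50306992-50307665), 11, 18 and 99, and MICALL1 (chr22:37905994-37906810), whose promoter is printed above, 22, 16 and 84. MGAT5B, a glycosyltransferase gene (chr17:76868080-76868620), had 23, 23 and 110. AGO1, an Argonaute gene (chr1:35881067-35881586), had 15, 14 and 71, and AIPL1, a photoreceptor chaperone gene (chr17:6422049-6422471), 11, 11 and 46. Scaled for depth, ATRA+POM was below DMSO by 1.56 to 2.23 on the log2 scale in these 7. The POM values were less low, with −0.39 at PCBP4, −0.60 at MICALL1 and −1.83 at PLXNB2. The 7 were picked for a low ATRA+POM ratio, so no contrast with POM is drawn from them. Of the 19 members at least 2-fold lower in ATRA+POM than in DMSO, 6 were within 1 kb of a gene boundary. Of the same 19, 11 had 50 or more DMSO reads, and at that pileup 38.0% of the regions of all 4 lists lay near a boundary. The share near a boundary among all regions this much lower was not counted.

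The members lay away from genes more often than the regions of all 4 lists did, but not within classes of equal DMSO pileup from 12 reads up. No protein-coding gene lay within 100 kb of 741 (26.8%), against 14.6% of the regions of all 4 lists, and 41.9% were inside a gene, against 47.4%. The median number of protein-coding genes within 500 kb on either side was 5, against 8. At 12 to 15 DMSO reads 31.6% of the members had no gene within 100 kb, against 32.9%, and the median gene number was 4 in both sets. At 16 to 19 reads the shares without a gene were 24.8% and 30.7%, at 20 to 29 reads 19.9% and 25.2%, and at 30 to 49 reads 7.61% and 18.0%. Of the regions missing only from POM, ATRA+POM and DMSO, 15.1%, 10.1% and 34.3% had no gene within 100 kb. The share missing from ATRA was lowest on chromosome 19 (1.97%, 1.38 to 2.80%), 17 (3.18%) and 22 (3.63%), which are rich in genes. It was highest on 5 (8.16%, 7.11 to 9.34%), 8 (7.64%) and 2 (7.43%). Regions missing only from DMSO were also fewest on 22 (0.599%), 19 (0.863%) and 17 (1.00%). By gene number within 500 kb, the share missing from ATRA was 10.4% with 0 to 2 genes, 7.65% with 3 to 5, 5.35% with 6 to 10, 3.98% with 11 to 20 and 2.71% with 21 or more. Pileup moved with it, with a median DMSO pileup of 28 reads at 0 to 2 genes and 115 at 21 or more. Among regions of 12 to 19 DMSO reads the order turned, with 23.1% missing at 0 to 2 genes (455 of 1973, 21.3 to 24.97%) and 32.2% at 21 or more (64 of 199, 26.1 to 38.9%). In the regions of all 4 lists the scaled ATRA over DMSO median moved with gene number as well, being 0.07 on the log2 scale at 0 to 2 genes and −0.02 at 21 or more.

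**Figure D4:**
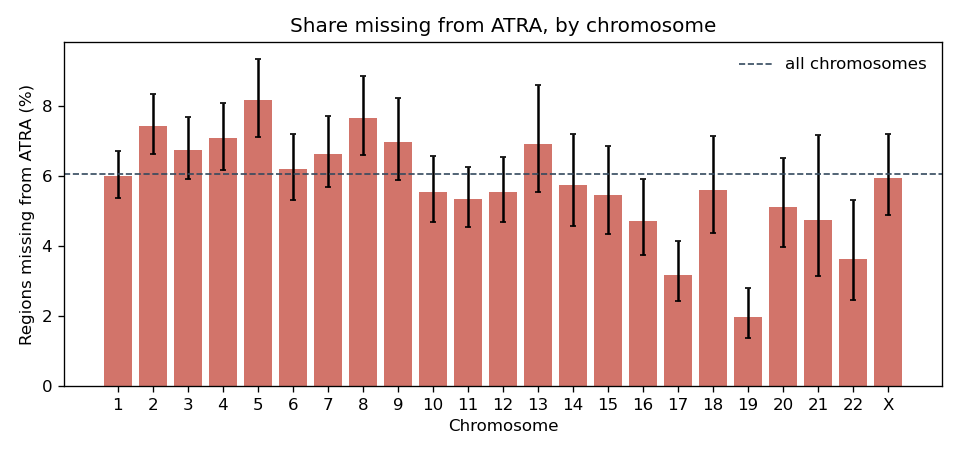
Share of regions called in POM, ATRA+POM and DMSO that were missing from ATRA (%), by chromosome, with Wilson 95% intervals; the dashed line is the share over all chromosomes, 6.05%. Chromosome 19 is lowest at 1.97% and chromosome 5 highest at 8.16%.

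Most members stood singly, and they followed each other somewhat more often than they followed other regions. The nearest ATRA peak was a median of 11862 bp away, with quartiles of 4598 and 27781 bp. It lay within 250 bp of 27 members and within 1 kb of 174 (6.30%), and 343 (12.4%) had none within 50 kb. In order along the chromosomes, 8.65% of the regions that followed a member were members themselves (239 of 2762), against 5.88% of those that followed a region of all 4 lists. These shares were not matched for pileup or gene number, and the share missing from ATRA moved with both. There were 21 runs of 3 or more members in a row, and the longest run was 4. It lay in and beside ATP10B, a lipid-flippase gene on chromosome 5, with 31, 29, 18 and 16 reads in ATRA+POM and 14, 17, 11 and 17 in DMSO. The nearest region of all 4 lists within 50 kb of a member had a median log2 scaled ATRA over DMSO of −0.00. For the neighbours of regions of all 4 lists it was −0.01. Each neighbour had to carry an ATRA peak, and the scale was set on all such regions. These medians therefore leave out neighbours that lacked an ATRA peak, and no level of ATRA signal beside the members is drawn from them.

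Within 100 kb of a gene lay 2022 members, spread over 1690 genes, of which 1427 had 1 and 12 had 4 or more. The genes with most members were long. They were picked for that count, so a high share at them was set by the choice. Of all regions called in POM, ATRA+POM and DMSO, 6.05% were missing from ATRA. That share was 49.1% below 12 DMSO reads, 32.4% at 12 to 15 and 18.1% at 16 to 19. DLG2, a postsynaptic scaffold gene, had 6 of the 34 regions called there in POM, ATRA+POM and DMSO, with 5 to 17 reads in POM, 13 to 35 in ATRA+POM and 10 to 19 in DMSO. RBFOX1, a neuronal splicing factor gene, had 6 of 33, and CNTNAP2 had 5 of 23. RGS6, a regulator of G protein signalling, had 5 of 15. Regions missing only from DMSO numbered 4 at DLG2, 1 at RBFOX1, 4 at CNTNAP2 and 0 at RGS6. Genes with 4 members included NMNAT2 (of 8), FRMD6 (of 7), GRIP1 (of 11), CA10 (of 13), ABCA13 (of 11) and ATP10B (of 15).

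RARB, the receptor gene named in the study's title, had 19 regions called in POM, ATRA+POM and DMSO. Of these 5 were missing from ATRA (26.3%), against 6.05% of all such regions. Missing only from DMSO were 0, against 4.21% over all regions. In POM, ATRA+POM and DMSO the 5 had these reads: 15, 23 and 11 at chr3:24955977-24956757, 9, 22 and 14 at chr3:25023240-25023926, 12, 14 and 10 at chr3:25453530-25453935, 14, 22 and 10 at chr3:25503741-25504298, and 7, 17 and 10 at chr3:25568590-25568979. All 5 were weak in DMSO, with 10 to 14 reads, and stood 0.70 to 1.82 higher in POM and 0.99 to 1.64 higher in ATRA+POM on the scaled log2 axis. The second and the third lay 975 and 731 bp from an ATRA peak. The other 14 regions at RARB were called in ATRA as well, with 10 to 74 reads there (median 15.5) against 11 to 85 in DMSO (median 19). Scaled for depth, ATRA was above DMSO in 9 of these 14, with a median log2 ratio of 0.20 and a range of −0.50 to 0.68. The peak over the lowest-coordinate end of the gene (chr3:24828922-24830068) was in all lists, with 74 reads in ATRA, 22 in POM, 44 in ATRA+POM and 85 in DMSO. Being called in ATRA was a condition for these 14. For the regions of all 4 lists genome-wide, this median moved with the DMSO pileup. It was 0.57 below 12 reads, 0.20 at 16 to 19 and −0.04 at 50 or more. The 14 spread over these classes, and no median matched to them was taken. The 5 missing peaks were among the weakest at RARB in DMSO, and 6 of the 14 called in ATRA also had under 16 DMSO reads. Over all regions the share missing from ATRA was 49.1% below 12 DMSO reads and 32.4% at 12 to 15.

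**Figure D5:**
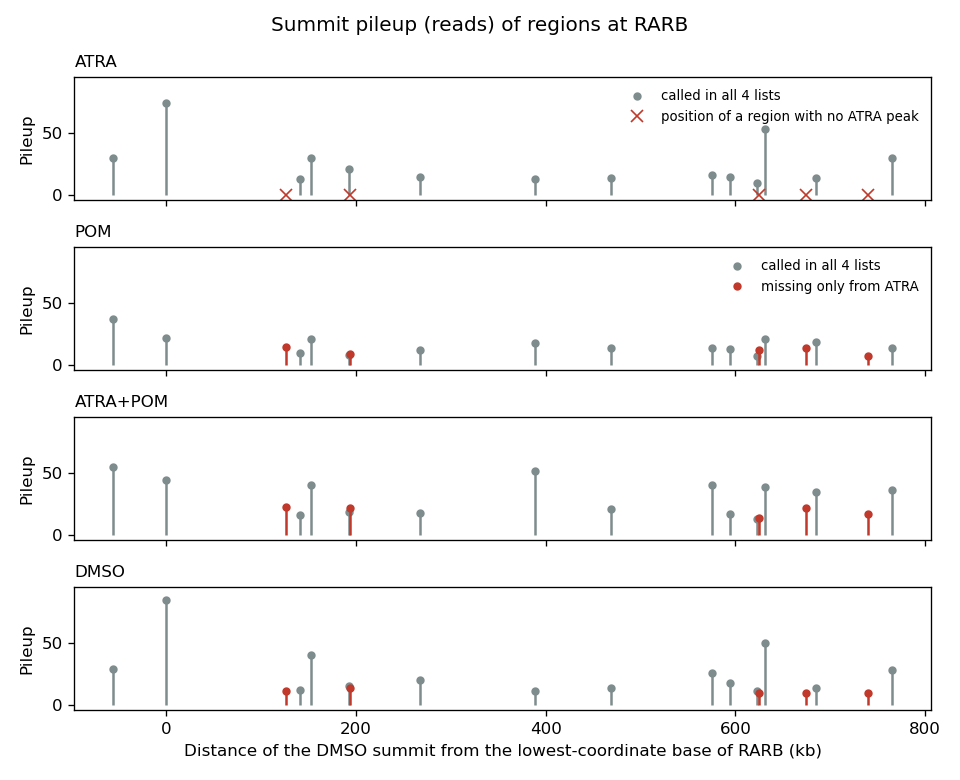
Summit pileup (reads, not scaled for depth) of the 19 regions at RARB called in POM, ATRA+POM and DMSO, by distance in kb from the lowest-coordinate base of the gene, in 4 panels (ATRA, POM, ATRA+POM and DMSO). Grey stems are called in all 4 lists, red stems are missing only from ATRA, and crosses in the ATRA panel mark the position of a region with no ATRA peak and are no measured value. The 5 missing regions had 10 to 14 reads in DMSO.

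Other gene groups were read against the 6.05% of all regions. Retinoid receptor and metabolism genes had 7 of 61 regions missing from ATRA (11.5%, 5.67 to 21.8%), the 5 at RARB with 1 near CYP26A1 and 1 in TGM2, a retinoid-induced transglutaminase gene. The CYP26A1 region (chr10:93110424-93110964) had 5 reads in POM, 10 in ATRA+POM and 14 in DMSO, and the TGM2 region (chr20:38152308-38152779) 5, 16 and 10. All 7 were among the 20 regions of the group with under 20 DMSO reads. Over all regions with under 20 DMSO reads, 2023 were missing from ATRA and 4883 were in all 4 lists. By class, the share missing was 49.1% below 12 reads, 32.4% at 12 to 15 and 18.1% at 16 to 19. Of the group's regions called in the other 3 lists, 1 (1.82%) was missing only from DMSO, against 4.21% of all regions. The interval of the ATRA share includes 6.05%, and most of the regions come from 1 gene.

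Plasma cell and myeloma genes had 3 of 72 (4.17%, 1.43 to 11.5%). Each of them stood beside an ATRA peak. The peak near PRDM1, the plasma cell master regulator (chr6:106111953-106112440), had 21 reads in POM, 53 in ATRA+POM and 53 in DMSO. Its DMSO background was 26.6, and an ATRA peak lay 715 bp away. Scaled to ATRA, its DMSO value corresponds to 46.3 reads, where 42 were needed for a call. The one in SDC1, which encodes the plasma cell surface proteoglycan CD138 (chr2:20223004-20224133), had 22, 31 and 77 reads over a DMSO background of 42.0, with an ATRA peak 361 bp away. The one near CD38, a surface enzyme and antibody target (chr4:15883778-15884170), had 11, 20 and 18 reads, 701 bp from an ATRA peak. Ikaros factors and the cereblon ligase had 1 of 29 (3.45%), a weak peak in IKZF1 (chr7:50393743-50394535) with 5, 9 and 11 reads.

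Genes of neuronal adhesion (teneurins, contactins and their partners, neurexins, DCC) had 19 of 214 regions missing from ATRA (8.88%, 5.76 to 13.4%), at 9 of the 23 genes. Missing only from DMSO there were 20 (9.30%). Cadherins had 11 of 84 (13.1%, 7.47 to 21.9%), and the same number, 11 (13.1%), missing only from DMSO. Ionotropic glutamate receptor genes had 7 of 85 (8.24%, 4.05 to 16.04%), and 10 (11.4%) missing only from DMSO. For these groups the ATRA list and the DMSO list each lacked a like number of regions. Most were weak in DMSO, 16 of the 19, 9 of the 11 and 6 of the 7 being under 20 reads. The groups had 77, 26 and 30 regions under 20 DMSO reads in the same order. Over all regions under 20 DMSO reads, 2023 were missing from ATRA and 4883 were in all 4 lists. A region in CDH13, an atypical cadherin gene (chr16:83219855-83220568), had 29 reads in POM, 67 in ATRA+POM and 13 in DMSO, and one in TENM2 (chr5:167296713-167297222) had 16, 48 and 19. A region in CDH4 (chr20:61803847-61804603) ran the other way, with 4, 9 and 28.

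NF-kB genes had 2 of 37 (5.41%), one near NFKBIZ, an atypical inhibitor of NF-kB (chr3:101863401-101864482), with 24 reads in POM, 46 in ATRA+POM and 30 in DMSO, and one near TNFAIP3, a ubiquitin-editing inhibitor of the pathway, with 9, 16 and 14. Apoptosis genes had 1 of 52 (1.92%), near BCL2A1, an anti-apoptotic BCL2 family member, with 10, 15 and 18 reads. Cell cycle genes had 1 of 45 (2.22%), in CDK6, a G1 kinase, with 8, 19 and 32 reads. AP-1 genes had 0 of 38 and interferon-stimulated genes 0 of 32. By the limit of 3 counts that a count of 0 allows, the shares could be up to 7.89% and 9.38%, and the Wilson upper bounds were 9.18% and 10.7%. The median DMSO pileup of a group's regions moved with its share: it was 25 reads for neuronal adhesion, 31 for cadherins and 27 for glutamate receptors, against 118 for AP-1, 98 for cell cycle and 90 for interferon-stimulated genes. The part of pileup in these shares was not tested.

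Strong regions missing only from another list give the scale of such losses. Missing only from DMSO, a region in TRPM3 (chr9:71249494-71250023) had 40 reads in ATRA, 28 in POM and 38 in ATRA+POM. Missing only from POM, TNN (chr1:175124988-175125547) had 111 reads in ATRA, 71 in ATRA+POM and 105 in DMSO, and KDM2B (chr12:121443050-121443852) had 70, 52 and 76. Missing only from ATRA+POM, a region 14.6 kb from DMRTB1 (chr1:53444459-53445059) had 78 in ATRA, 30 in POM and 88 in DMSO, and one 9999 bp from FAM90A1 (chr12:8237526-8237880) had 71, 48 and 95.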

How the data were processed

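Grouping of the 4 ATAC-seq libraries followed the treatment label, 1 library each. The authors deposited a peak list and a summit list per library, not pooled, on hg38 per the submitters' processing notes. Per the column layout and values, the deposited columns are a score, a fold ratio of summit pileup to background, −log10 p-value and −log10 q-value of the summit, and the summit offset. For the aligner, the peak caller and any Tn5 shift, settings were not given in the sources used here. The 5 peaks on other chromosomes were left out. The members and gene lists were chosen with earlier results of these data known.

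Peaks overlapping by 1 bp or more were merged with Python 3.11.15, numpy 2.4.6 and pandas 2.3.3. The member count was the same with bedtools 2.31.1. Pileup and background were solved from the fold and p-value under a Poisson tail, and gave the deposited −log10 p-value back for 100% of peaks (tolerance 0.01). The code was tested on simulated data. Genes are 19973 RefSeq protein-coding genes. Named regions are the 15 members with the best worst rank over the 3 lists, the 5 best within 1 kb of a gene boundary, the 5 genes with most members, members at genes of the fixed lists, and the 2 best of each set missing from 1 other list. Other named regions were chosen after their values were seen. Not every item this rule picks is reported here. Alternatives changed the threshold, list length, merging and required lists.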

Additional observations from a re-analysis of the deposited data

How the results depend on the processing

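The number of regions missing only from ATRA, 2763, lay between 2108 and 3546 in 7 of 8 alternatives and was 4964 when the POM list was not required. The count in the top 20000 of each list, 4, was 8 when the ATRA+POM list was not required, 0 in the top 10000 and 18 in the top 30000, and 4 in the other 7. The share within 1 kb of a gene boundary, 2.21%, was 2.86% without the POM list and 3.13% without the ATRA+POM list, 9.92% within 5 kb and 1.11% for listed starts only. The median DMSO −log10 q-value of the members, 5.43, was 6.23 with the stricter threshold in 3 lists, with it in every list and with truncated lists, and 4.65 without the POM list. Not requiring the POM or the ATRA+POM list and counting listed starts only were added after the data were seen. The motif search around summits was not run, since no genome of this build was used here. No paired analysis was possible because each condition has 1 library and no test was made. Read totals are not in the files, so depth was not measured. The scale of 0.396 for POM is a median ratio of peak pileups to DMSO. The genome-wide backgrounds were 0.550 reads in POM and 2.36 in DMSO, so the scale holds more than read number. The part of depth in the set was not tested.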
